A study of Mus musculus with 4 samples.

Results

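The carbonic anhydrase genes examined here are the 10 genes Car2, Car3, Car4, Car7, Car8, Car10, Car11, Car12, Car13 and Car14. They were taken by their mouse gene symbol from a table of 46072 genes, and each symbol matched 1 row. Their poly(A) RNA was sequenced in 4 libraries from untreated mice of wild-type genotype, which are labelled endothelial, of the brain vasculature, and were dissected from tissue with a laser under the microscope (laser capture microdissection). The title adds that the tissue was fixed by perfusion and the cells were picked by immunolabelling. The 4 libraries form 1 group, called replicates 1 to 4, so members were compared with one another, with a fixed level and with marker genes of the same libraries. The age and sex of the mice and whether each library came from a separate animal are not given in the labels, so each p-value speaks of the spread among these 4 libraries alone, and that spread may be technical.

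Carbonic anhydrases are zinc enzymes that interconvert carbon dioxide and water with bicarbonate and a proton. In brain they are known for buffering the pH of glia and neurons, for the secretion of cerebrospinal fluid by the choroid plexus, and for carbon dioxide exchange at the capillary wall. The cytosolic enzymes (Car2, Car3, Car7 and Car13) act inside the cell, and the membrane-bound ones (Car4, Car12 and Car14) face the outside. Car8, Car10 and Car11 are carbonic anhydrase-related proteins, which keep the fold but lack zinc-binding histidines and are not active as enzymes.

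The stretch of coding sequence around the zinc site is shown for 6 members because it separates the enzymes from the related proteins. The sequences run 5′ to 3′ on the gene's own strand, were read from GENCODE M21 transcripts (build GRCm38), and join exons 4 and 5, or 3 and 4 in Car7, without the intron between them. Capitals mark the codons at the aligned places of the 3 zinc-binding histidines.
Car4: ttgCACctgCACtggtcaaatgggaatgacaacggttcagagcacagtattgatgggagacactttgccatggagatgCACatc
Car7: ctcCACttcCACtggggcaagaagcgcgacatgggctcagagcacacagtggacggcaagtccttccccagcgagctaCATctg
Car12: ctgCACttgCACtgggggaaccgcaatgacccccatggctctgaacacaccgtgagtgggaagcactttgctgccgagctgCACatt
Car14: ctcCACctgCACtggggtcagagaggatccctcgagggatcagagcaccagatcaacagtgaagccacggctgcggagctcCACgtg
Car10: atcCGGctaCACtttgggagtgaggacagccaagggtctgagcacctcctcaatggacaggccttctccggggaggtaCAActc
Car11: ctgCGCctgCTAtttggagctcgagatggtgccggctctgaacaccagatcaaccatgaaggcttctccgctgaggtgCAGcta
These stretches lie at chr11:84964164-84964356 (plus strand), chr8:104547731-104548194 (plus), chr9:66747644-66750938 (plus), chr3:95900018-95900320 (minus), chr11:93490603-93578674 (plus) and chr7:45702545-45702841 (plus). Car4, Car7, Car12 and Car14 each held a histidine codon, CAC or CAT, at 3 of 3 places. In Car10 only the middle place kept one, with CGG, CAC and CAA at codons 132, 134 and 157. In Car11 none of the 3 places did, with CGC, CTA and CAG at codons 134, 136 and 159.

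Values are FPKM, sequenced fragments per kilobase of transcript scaled to each library's mapped fragments, which allow levels of different genes to be compared per length. Library sums ran from 448678 to 482882 FPKM. Among genes with 1 annotated transcript, a peak of low values was taken as the worth of 1 whole fragment. It held 47, 50, 46 and 29 genes in replicates 1 to 4. The next tallest bin of values held 10, 10, 21 and 8, so the peak was least distinct in replicate 3. If fragments were alike in length, replicates 1 to 4 had 1.13, 1, 1.53 and 1.11 times the depth of the shallowest library. Only 8.88% to 10.9% of low values were whole multiples of that step within 0.02, so read counts could not be recovered. The libraries held marker RNA of several brain cell types beside the labelled one. Against 1 FPKM, 14 of 17 pan-endothelial markers lay above and 1 below, and the median marker of the list had 5.75 ± 0.645 FPKM (SD, n = 4). Cldn5, the endothelial tight junction gene, measured 19.0 ± 0.698 FPKM. All 14 neuronal, 12 oligodendrocyte, 11 astrocyte, 11 choroid plexus, 8 microglial and 7 capillary markers lay above 1 FPKM (limma, adjusted over all genes). Their medians were 117 ± 1.33, 79.9 ± 8.69, 60.9 ± 10.4, 25.1 ± 5.39, 16.7 ± 1.36 and 16.03 ± 3.36 FPKM. Of 10 mural cell markers 9 lay above 1 FPKM, of 7 erythroid ones 5 lay above and 2 below, of 6 Purkinje cell ones 3 above and 1 below, and of 8 fat and muscle ones 2 above and 5 below. Of all genes tested, 47.7% lay above 1 FPKM and 40.1% below. The 3 of 6 Purkinje cell markers above were near that share, so this count does not show RNA of those cells.

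The family was led by Car2, a fast cytosolic enzyme found in oligodendrocytes, choroid plexus, astrocytes and red cells. Of the 10 members, 8 lay above 1 FPKM (limma's moderated test on log2(FPKM + 1), adjusted over 25206 genes), where 47.7% of all genes tested lay above and 40.1% below. The other 2, Car13 and Car3, passed in neither direction. The order of mean levels was Car2, Car11, Car14, Car4, Car10, Car12, Car7, Car8, Car13 and Car3. In bulk libraries fewer cells of a type and less RNA per cell cannot be told apart.

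**Figure D1:**
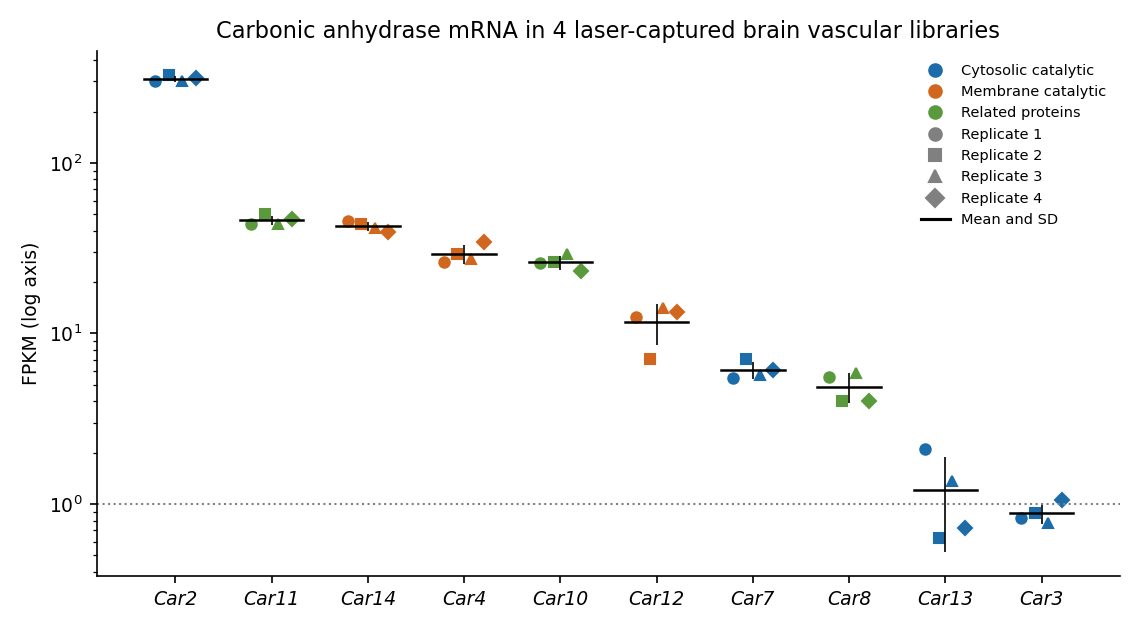
FPKM of the 10 members in each of 4 libraries, on a log axis, ordered by mean. Symbols are libraries, colours are the enzyme classes, and bars give the mean and SD. Car2 sits between 300.7 and 329 FPKM in all libraries, while Car13 and Car3 straddle the dotted line at 1 FPKM.

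Among the cytosolic enzymes, Car2 (ENSMUSG00000027562, chromosome 3, 14886273 to 14900770, plus strand, GRCm38) measured 300.7, 329, 303.5 and 315 FPKM in replicates 1 to 4. Its values lay close together, with a mean of 312 ± 12.9 FPKM (SD, n = 4) and a coefficient of variation of 4.14%. Only 2.76% of the 362 genes within 2-fold of its level varied less. On the log2(FPKM + 1) scale Car2 exceeded 1 FPKM by 7.29 ± 0.05 (SE; limma, adjusted p = 9.9e-08), and ranked 176 of the 25206 genes above 0 in any library. Haemoglobin and other erythroid markers were measured beside it, at a summed 1202 to 2017 FPKM per library with the lowest sum in replicate 3 and the highest in replicate 2, where Car2 was also highest, and their part in the Car2 level was not tested. The 12 oligodendrocyte markers summed to 5063, 6336, 5351 and 5825 FPKM in replicates 1 to 4, the same order of libraries as Car2, and their part was not tested either.

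Car7, a neuronal cytosolic enzyme known for its link to GABA responses (chromosome 8, 104534689 to 104550343), measured 5.49, 7.10, 5.73 and 6.14 FPKM. Replicate 2 was the highest and the other libraries lay within 0.66 FPKM of one another. Its mean of 6.11 ± 0.710 FPKM exceeded 1 FPKM by 1.83 ± 0.09 (SE) in log2(FPKM + 1) (limma, adjusted p = 1.09e-05).

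The remaining cytosolic members were near 1 FPKM. Car13, a widely expressed enzyme (chromosome 3, 14641727 to 14663002), measured 2.11, 0.636, 1.36 and 0.725 FPKM, so replicates 1 and 3 lay above 1 FPKM and replicates 2 and 4 below. Car3, an enzyme of low activity abundant in muscle and fat (chromosome 3, 14863512 to 14872523), measured 0.825, 0.883, 0.770 and 1.06 FPKM, with replicate 4 alone above 1 FPKM. Differences from 1 FPKM were 0.09 ± 0.19 (SE) for Car13 and -0.09 ± 0.09 for Car3 on the log2(FPKM + 1) scale (limma, adjusted p = 0.663 and 0.387). With each library rescaled to a sum of 1000000, as TPM has, which moved the median gene by 0.73 on that scale, both lay above the level, by 0.76 and 0.53 (adjusted p = 0.0423 and 0.0174). Beside Car3, the fat marker Adipoq was listed at 0 in all libraries, and the muscle gene Acta1 measured 5.30 ± 1.35 FPKM.

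Car13, Car3 and Car2 lie beside one another with Car1 within 259 kb of chromosome 3, a stretch in which 4 of 6 annotated genes are carbonic anhydrases. Levels in this cluster were far apart. Car2 averaged 312 FPKM against 1.21 for Car13, 0.883 for Car3 and 0.169 for Car1, a red cell enzyme. The ratio of Car2 to Car3 was 298 to 394 across libraries, and that of Car2 to Car13 was 143 to 517.

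The membrane-bound enzymes were all above 1 FPKM. Car14, a transmembrane enzyme of neurons (chromosome 3, 95897768 to 95904691, minus strand), measured 45.5, 44.01, 41.3 and 39.4 FPKM. The libraries spanned 6.14 FPKM with no library apart, and the mean was 42.6 ± 2.74 FPKM, 4.44 ± 0.05 (SE) above 1 FPKM (log2(FPKM + 1), limma, adjusted p = 1.09e-07). Its value is uncertain to the extent that reads were shared with Aph1a on the other strand, at 15.0 ± 1.98 FPKM, since 445 exon bases, 17.5% of those of Car14, belong to both genes and the strand setting is not given.

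Car4, anchored to the outer face of the membrane and known on the luminal surface of brain capillaries (chromosome 11, 84957786 to 84966044), measured 26.3, 29.1, 27.3 and 34.3 FPKM. Replicate 4 was the highest and stood 5.23 FPKM from the next library. The mean was 29.3 ± 3.58 FPKM, 3.91 ± 0.07 (SE) above 1 FPKM (log2(FPKM + 1), limma, adjusted p = 3.34e-07). Set beside 7 other capillary markers, Car4 came below Itm2a, a membrane protein gene, at 139 ± 14.5 FPKM and Rgcc, a cell cycle regulator, at 31.7 ± 3.57, and above Slco1a4, an organic anion transporter, at 21.01 ± 4.78. Mfsd2a, the lysolipid transporter of the barrier, was the lowest of those 7 at 8.06 ± 2.09 FPKM. Car4 was 1.91 ± 0.563 times the capillary list median, with a range of 1.36 to 2.41 over libraries.

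Car12, a transmembrane enzyme known from secretory epithelia including the choroid plexus (chromosome 9, 66713686 to 66766845), measured 12.4, 7.10, 14.1 and 13.3 FPKM. Replicate 2 lay apart from the other libraries, and the mean was 11.7 ± 3.15 FPKM. Of 4682 genes within 2-fold of its level, 90.6% varied less than its coefficient of variation of 26.9%. Car12 was 2.63 ± 0.17 (SE) above 1 FPKM (log2(FPKM + 1), limma, adjusted p = 3.94e-05). Of the 11 choroid plexus markers, 10 were also lowest in replicate 2, and Sostdc1 was lowest in replicate 1. Ttr, the transthyretin gene of that tissue, measured 13933, 11398, 15859 and 16782 FPKM in replicates 1 to 4. The other 10 markers of the list summed to 1216, 935, 1319 and 1269 FPKM, in the same order of libraries as Car12. None of the 11 markers alone had that order, and Enpp2, at 726 ± 114 FPKM, was the largest part of the sum. With Ttr included, the sum was highest in replicate 4, at 18051 FPKM, against 17177 in replicate 3. All 11 choroid plexus markers lay above 1 FPKM, from Slc4a5, a bicarbonate cotransporter, at 4.83 ± 1.42 FPKM upward, and their part in the Car12 values was not tested.

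**Figure D2:**
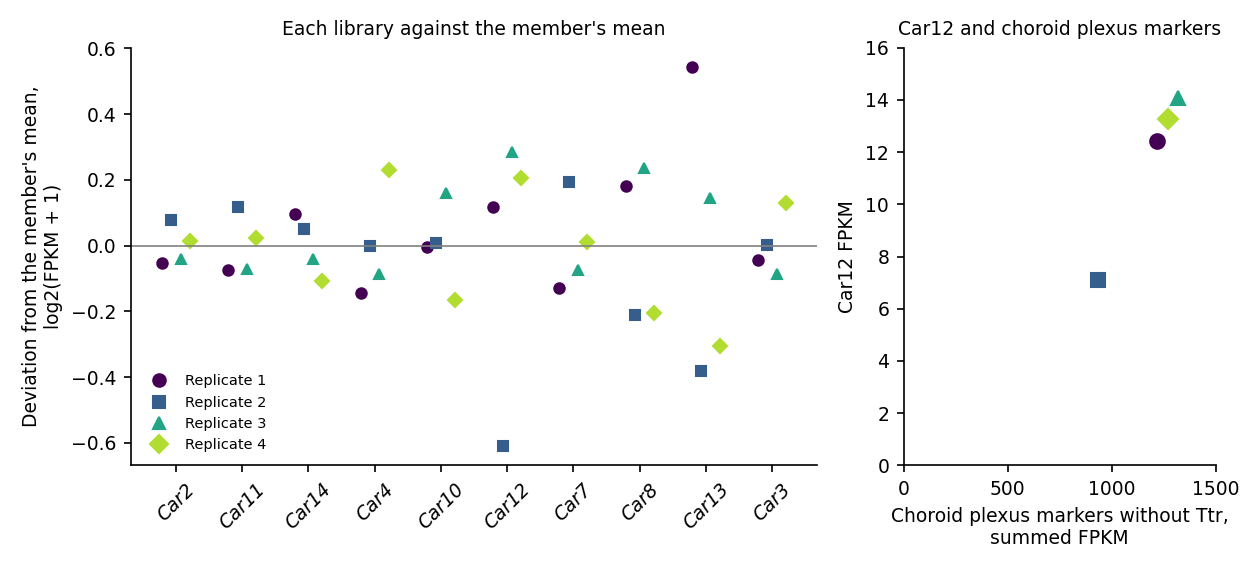
Left, the deviation of each library from the member's own mean on the log2(FPKM + 1) scale, with symbols for the libraries. Right, Car12 FPKM against the summed FPKM of 10 choroid plexus markers without Ttr, where replicate 2 is lowest on both axes at 7.10 and 935 FPKM.

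The 3 related proteins without enzyme activity were also all above 1 FPKM. Car11, a secreted protein of brain (chromosome 7, 45699843 to 45704682), measured 43.6, 49.9, 43.7 and 46.7 FPKM. Replicates 1 and 3 were nearly equal, and the mean was 46.0 ± 3.0 FPKM, 4.55 ± 0.05 (SE) above 1 FPKM (log2(FPKM + 1), limma, adjusted p = 1.04e-07). Car10, a secreted protein known to bind neurexins at synapses (chromosome 11, 93098028 to 93601749), measured 25.9, 26.1, 29.2 and 23.1 FPKM. Replicate 3 was highest and replicate 4 lowest, and the mean was 26.1 ± 2.48 FPKM, 3.75 ± 0.06 (SE) above 1 FPKM (limma, adjusted p = 2.83e-07).

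Car8, a Purkinje cell protein that binds the calcium release channel encoded by Itpr1 (chromosome 4, 8143362 to 8239041, minus strand), measured 5.58, 4.01, 5.85 and 4.03 FPKM. Replicates 1 and 3 were high and replicates 2 and 4 low, and the mean was 4.87 ± 0.980 FPKM, 1.54 ± 0.12 (SE) above 1 FPKM (limma, adjusted p = 9.62e-05). Itpr1 split the libraries the same way, at 14.6, 7.74, 13.2 and 9.92 FPKM. Of the 6 Purkinje markers, which summed to 50.03 to 52.2 FPKM per library, Calb1, a calcium-binding protein, was highest at 33.6 ± 4.12 FPKM. Pcp2, a defining marker of these cells, was at or near 0, with 0, 0.125, 0.0346 and 0 FPKM.

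Car8, Car12, Car10 and Car13 have longest transcripts of 3853, 3716, 3334 and 2299 bases, against 1256 to 1943 bases for the other members. Long transcripts as a whole differed between libraries. Among genes averaging 1 FPKM or more, the median deviation of 7301 genes with transcripts of 3000 bases or more, minus that of 2323 genes under 1500 bases, was 0.17, -0.06, 0.05 and -0.17 on the log2(FPKM + 1) scale in replicates 1 to 4. Car8 deviated from its own mean by 0.18, -0.21, 0.24 and -0.21, with the sign of that difference in all 4 libraries. Car12 deviated by 0.12, -0.61, 0.29 and 0.21, with the opposite sign in replicate 4, and Car10 by -0.0029, 0.0073, 0.16 and -0.16, close to 0 and of opposite sign in replicates 1 and 2. Car13, of middle length, deviated by 0.54, -0.38, 0.14 and -0.31, with the sign of the same long-minus-short difference in all 4 libraries. Those signs were opposite in all 4 libraries to the median of its own length class. That median, over 3962 genes of at least 1500 and under 3000 bases, was -0.055, 0.10, -0.051 and 0.021. The part of transcript length in these values was not tested.

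Summed over the 10 members, the family held 481 ± 13.2 FPKM, or 0.103% ± 0.00386 of summed FPKM (SD, n = 4). Car2 made up 64.9% ± 0.903 of the family sum. All 4 cytosolic enzymes together held 66.6% ± 0.898, the 3 membrane-bound enzymes 17.4% ± 0.885, and the 3 related proteins between 15.3% and 16.6% per library. Without Car2, the other 9 members summed to 167.8 to 169.3 FPKM in the 4 libraries. Car11 held 9.56% ± 0.361 of the family sum, Car14 8.86% ± 0.650, Car4 6.08% ± 0.684, Car10 5.43% ± 0.584 and Car12 2.45% ± 0.696. The shares of Car7, Car8, Car13 and Car3 were 1.27% ± 0.112, 1.02% ± 0.228, 0.254% ± 0.149 and 0.184% ± 0.0241.

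**Figure D3:**
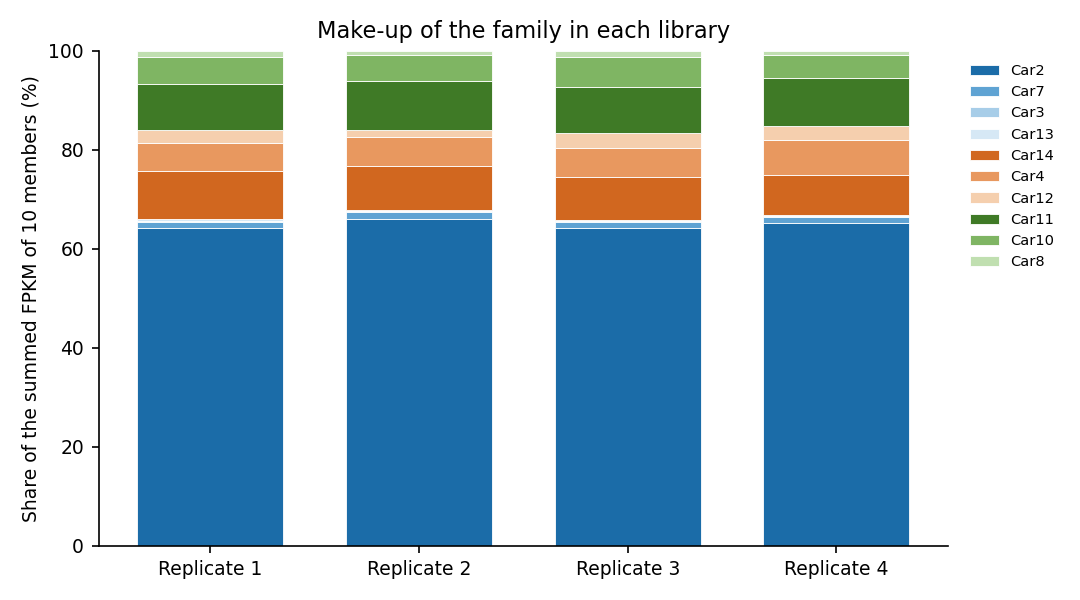
Share of the summed FPKM of the 10 members held by each member, in percent, 1 bar for each library. Blue shades are cytosolic enzymes, orange membrane-bound enzymes and green related proteins. Car2 takes 64.2% to 66.1% of every bar.

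Neighbours in the order of levels were compared within library, with the lower member's value subtracted from every gene. That order came from the mean FPKM of these same 4 libraries, so the direction of each pair was set by the values tested. No adjustment was made over the 9 pairs. Of the 9 neighbouring pairs, 5 differed (limma, adjusted over the 25205 other genes of each fit). In the fits for Car2 over Car11, Car11 over Car14, Car14 over Car4, Car4 over Car10, Car10 over Car12, Car12 over Car7, Car7 over Car8, Car8 over Car13 and Car13 over Car3, the share of all genes above the lower member was 6.12%, 6.39%, 8.71%, 9.65%, 15.7%, 26.5%, 29.3%, 45.4% and 49%. The 5 pairs were Car2 over Car11, Car14 over Car4, Car10 over Car12, Car12 over Car7 and Car8 over Car13. Subtracting 1 value per library gives all genes a shared error, which made limma's prior degrees of freedom infinite in 5 of these fits and in 3 of the marker list comparisons below, so its p-values there are too small. The p-values printed for these comparisons therefore use each gene's own variance (limma's linear fit, Benjamini-Hochberg adjusted), an alternative chosen after seeing the data. Exceptions are the counts of pairs and members, the shares of all genes, and results with the list mean or a library left out. Those rest on limma's moderated test, so in such fits they may hold too many calls.

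Car2 exceeded Car11 by 2.74 ± 0.02 (SE) on the log2(FPKM + 1) scale (adjusted p = 1.61e-05), a ratio of 6.79 ± 0.161 (SD). Car14 exceeded Car4 by 0.53 ± 0.12 (adjusted p = 0.0236), Car10 exceeded Car12 by 1.13 ± 0.21 (adjusted p = 0.0177), and Car8 exceeded Car13 by 1.45 ± 0.12 (adjusted p = 0.00618). Car12 was 0.80 ± 0.27 above Car7, a call that was lost with the gene's own variance (adjusted p = 0.0658), which left 4 pairs. The first-named member was the higher in each of the 4 libraries for all 5 pairs, but Car12 and Car7 were nearly level in replicate 2, at 7.105 and 7.098 FPKM. The exact permutation test by sign flips gave 0.125 for each, which is its floor with 4 libraries.

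The other 4 neighbours could not be told apart. Car11 was 0.11 ± 0.07 from Car14 (adjusted p = 0.199), Car4 was 0.16 ± 0.14 from Car10 (adjusted p = 0.35), Car7 was 0.29 ± 0.18 from Car8 (adjusted p = 0.228) and Car13 was 0.18 ± 0.25 from Car3 (adjusted p = 0.537). Car11 was the higher in 3 of 4 libraries, Car4 in 3, Car7 in 2 and Car13 in 2. Without replicate 3, limma's moderated test placed Car4 above Car10, by 0.24 (adjusted p = 0.0425), and Car7 above Car8, by 0.39 (adjusted p = 0.0485). That setting was not run with each gene's own variance, so these p-values may be too small and do not separate the pairs.

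Relative to the labelled cell type, 6 of 10 members lay above the median of the pan-endothelial markers in the same library and 2 below it, where 27.2% of all genes lay above and 65% below (limma, adjusted over 25206 genes). Those above were Car2, Car11, Car14, Car4, Car10 and Car12, and those below were Car13 and Car3. Car2 was 5.54 ± 0.07 (SE) higher on the log2(FPKM + 1) scale (adjusted p = 0.000247), and 54.8 ± 6.16 (SD) times the list median. Car4, the member known from the capillary wall, was 2.16 ± 0.08 higher (adjusted p = 0.000371) and 5.12 ± 0.598 times the list median. Car11, Car14 and Car10 were 2.80, 2.69 and 2.01 higher, and Car12 0.88 ± 0.21 higher (adjusted p = 0.0286). Car13 and Car3 lay at -1.66 and -1.84. Car7 at 0.08 ± 0.08 and Car8 at -0.21 ± 0.15 could not be told from the median (adjusted p = 0.448 and 0.271). With the list mean in place of its median, both lay below (limma's moderated test, Car7 at -0.32, adjusted p = 0.0205, and Car8 at -0.61, adjusted p = 0.001).

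Car2 was the 1 member above the oligodendrocyte, astrocyte and neuronal medians, and the other 9 lay below each of them. Of all genes, 3.42%, 4.46% and 2.15% lay above these medians and 95.6%, 93.9% and 97.2% below. Car2 was 1.96 ± 0.05 (SE) above the oligodendrocyte median on the log2(FPKM + 1) scale (adjusted p = 8.42e-05), or 3.93 ± 0.270 (SD) times its FPKM. It was 2.35 ± 0.09 above the astrocyte median (adjusted p = 0.000243) and 1.42 ± 0.03 above the neuronal median (adjusted p = 3.27e-05). The astrocyte median was the value of 1 gene, Gjb6, in every library. Nearest below were Car11 and Car14, at -0.78 and -0.89 from the oligodendrocyte, -0.38 and -0.49 from the astrocyte, and -1.32 and -1.43 from the neuronal median.

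Against the choroid plexus median, 3 members lay above and 5 below, where 8.75% of all genes lay above and 85% below. This median was the value of 1 gene, Kl, in every library, so each comparison is with that gene. Car2 was 3.61 ± 0.19 (SE) higher (adjusted p = 0.000692), Car11 0.87 ± 0.21 (adjusted p = 0.0285) and Car14 0.76 ± 0.18 (adjusted p = 0.0276). Car12 lay at -1.05 ± 0.06 (adjusted p = 0.000894), at 0.462 ± 0.0482 (SD) of the list median, and its ratio stayed between 0.409 and 0.518 over libraries. Car4 and Car10 could not be told from it, at 0.23 ± 0.20 and 0.07 ± 0.17 (adjusted p = 0.341 and 0.694). With the list mean, which Ttr raises, Car11, Car14, Car4 and Car10 turned to -0.47, -0.58, -1.11 and -1.27 and were all called below by limma's moderated test, so their direction rests on the summary used.

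**Figure D4:**
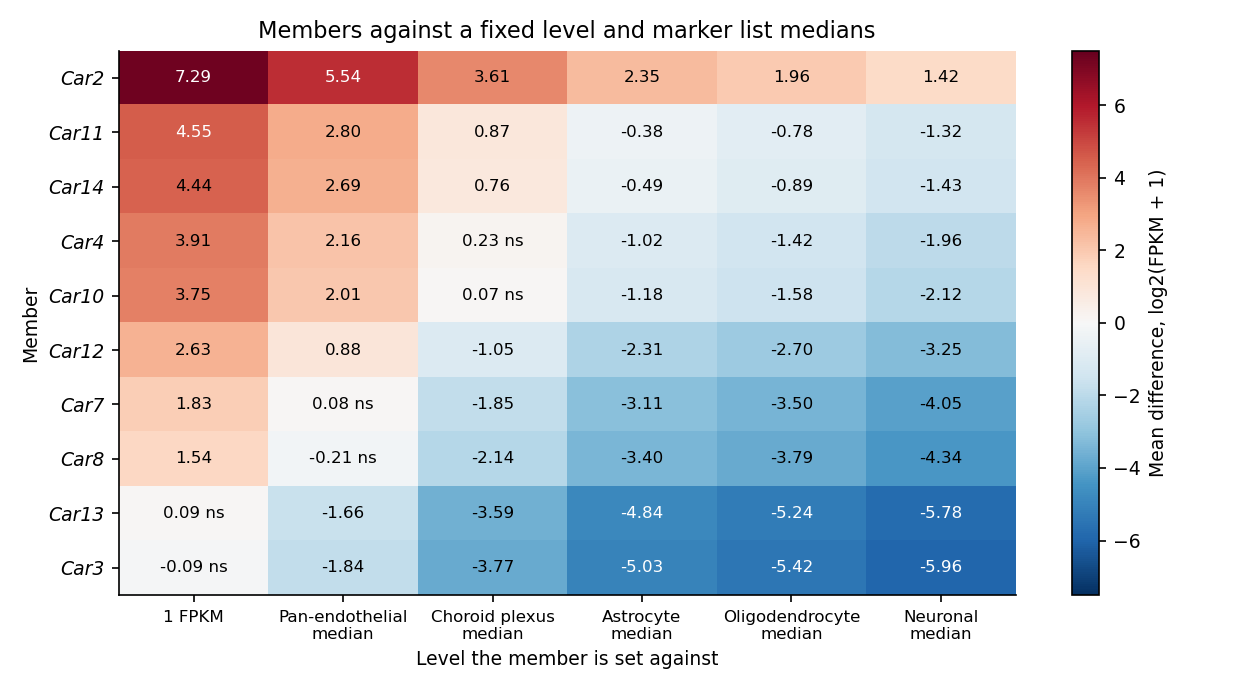
Mean difference of each member, in rows, from 1 FPKM and from 5 marker list medians, in columns, on the log2(FPKM + 1) scale over 4 libraries; ns marks differences that did not pass limma's moderated test. Car2 is positive throughout, from 7.29 against 1 FPKM to 1.42 against the neuronal median.

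Of the 6 other carbonic anhydrase genes of the table, 4 lay below 1 FPKM and none above, where 40.1% of all genes lay below and 47.7% above (limma, adjusted over all genes; at an unadjusted p under 0.05 also none above). Car5b, a mitochondrial enzyme, was the highest at 0.383, 0.594, 1.55 and 1.30 FPKM and passed in neither direction. Car15, a membrane-anchored enzyme, was listed at 1.009, 0, 0 and 0.377 FPKM. Car1, the red cell enzyme, was listed at 0.532, 0.0559, 0.0886 and 0, and Car9, the hypoxia-induced enzyme, at 0, 0, 0.512 and 0. Car5a, also mitochondrial, measured 0.0546 to 0.210 FPKM. Car6, the secreted salivary enzyme, was listed at 0 in all libraries and was not tested.

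Genes that act with the family were read against 1 FPKM as well. Of 10 genes of the Slc4 family, which carry bicarbonate, 6 lay above and 3 below 1 FPKM, near the 47.7% and 40.1% of all genes. The highest were Slc4a10, a neuronal and choroid plexus transporter, at 31.9 ± 5.99 FPKM (SD, n = 4), Slc4a2, an anion exchanger, at 13.6 ± 2.86 and Slc4a4, the astrocyte sodium bicarbonate cotransporter, at 12.3 ± 2.70. Slc4a1, the red cell exchanger, was lowest at 0 to 0.221 FPKM. Of 9 genes for proton and lactate export 7 lay above 1 FPKM and 2 in neither direction, where 47.7% of all genes lay above and 40.1% below. Bsg, the basigin partner of lactate transporters, measured 834 ± 37.5 FPKM, Slc9a3r1, a scaffold for proton exchangers, 27.2 ± 2.17 and Slc16a3, a lactate transporter, 0.954 ± 0.361. All 6 genes listed as partners or relatives of the non-enzymatic members lay above 1 FPKM, against the same 47.7% of all genes, and Ptprz1, a phosphatase with a carbonic anhydrase-like domain, measured 18.8 ± 4.11 FPKM, Nrxn3, a neurexin, 12.6 ± 3.51 and Ptprg, a like phosphatase, 3.05 ± 0.885. A second row named Nrxn2 was listed at 0 and was left out of that count.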

How the data were processed

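The authors deposited 1 table of FPKM for 46072 genes and 4 libraries. Per the submitters' processing notes, StringTie 2.2.1, HISAT2 2.2.1, SAMtools and bcl2fastq 2.20 were used, with GRCm38 as the build. What each tool did, the annotation, any filters, and how strand and multiply matching reads were handled is not given in the sources used here. Per the labels' protocols, RNA came from a Zymo Research miniprep kit and libraries from the NEBNext UltraExpress kit with mRNA enrichment and random priming.

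Columns were matched to libraries by library name, and 0 columns were left out. Values were tested as log2(FPKM + 1), a pseudocount of 1 that understates differences of low genes, with limma 3.58.1 in R 4.3.3 on the 25206 genes above 0 in any library, 2-sided, with a mean-variance trend and Benjamini-Hochberg adjustment at 0.05. Members and lists were chosen with earlier results of these data known. Named were all members, the 6 other family genes, and the 3 highest and the lowest gene of other lists where a result turned on the list, apart from some that are not reported here. The fit against 1 FPKM was tried on simulated data with known shifts, without the mean-variance trend. That simulation held no error shared within a library, so it does not bear on the comparisons with a subtracted value. Coding sequences of 6 members were translated, and the amino acid sequences were aligned with MAFFT 7.526. Codons were then compared at the aligned places. Read depth and counting error are unknown beyond the relative depths given. Gene positions are those of GENCODE M21 on GRCm38, where 45137 of the table's gene IDs were found. Other settings tried were the pseudocount, filters, scaling, variance model, list summary and each library left out.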

Additional observations from a re-analysis of the deposited data

Results flagged for a closer look

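Among 46 sets of values screened over the 4 libraries, 4 had 1 library far from the others, and chance flags about 1 set in 20. The share of Car4 in the family sum was 7.10% in replicate 4 and 5.60% to 5.84% in the others (gap over range 0.839). Car1 was listed at 0.532 FPKM in replicate 1 and at 0 to 0.0886 in the others (0.834). Car9 was listed at 0.512 FPKM in replicate 3 and at 0 in the others (1). The 6 Purkinje markers summed to 50.03 FPKM in replicate 1 and to 51.95 to 52.2 in the others (0.885).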

How the results depend on the processing

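Counts of members on either side of 1 FPKM and of the 5 list medians stayed within 1.5 times under each pseudocount, filter, scaling and variance model tried. With the list mean, the members below the pan-endothelial level became 4, and those above and below the choroid plexus level 1 and 9. That mean turned Car7 to -0.32 from the pan-endothelial level, and Car4, Car10, Car11 and Car14 to -1.11, -1.27, -0.47 and -0.58 from the choroid plexus level. Rescaling to a fixed sum turned Car3 to 0.53 from 1 FPKM. Leaving out each library in turn, Car13 ranged over -0.089 to 0.22 from 1 FPKM and -0.014 to 0.33 from Car3, both negative without replicate 1, and Car10 over -0.089 to 0.15 from the choroid plexus median, negative without replicate 2. Leaving out each library kept 8 members above 1 FPKM and gave 5 to 7 differing neighbours, both by limma's moderated test. It kept the share of Car2 between 64.5% and 65.1%, of Car4 between 5.74% and 6.24% and of Car13 between 0.188% and 0.296%. With the 6 other genes in the sum, Car2 held 64.7%. Of 740 values for single members, 726 kept their direction and side of the threshold. No paired analysis was possible because the series has 1 group, so no samples of different groups share a number. Members were compared within library. Car13 and Car3 had the lowest worth of the members in whole fragments, at about 34 to 127 per library by the step in low values. This worth is approximate, since read counts could not be recovered, and the part of depth in their spread was not tested.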

Other observations

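Over aligned codons, the coding sequences of Car10 and Car11 shared 60.2% of bases, against 40.9% to 53.2% for the other pairs among the 6 members shown, and both have 328 codons. In the libraries Car11 measured 1.499 to 2.02 times Car10.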
